A study of Mus musculus with 5 samples.

Results

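The 70 mouse axon guidance genes examined here code for the secreted and membrane-bound cues that steer growing axons and for the receptors that read them. They were taken by symbol from the 21887 protein-coding genes of the RefSeq annotation of the mouse build GRCm38.p6. The 35 ligand genes were 20 semaphorins, 8 ephrins, 3 Slits and 4 netrins. The 35 receptor genes were 9 plexins, 2 neuropilins, 14 Eph receptors, 4 Robo receptors and a group of 6 that held Dcc, Neo1 and the Unc5 genes. No measured value was used to choose them.

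Semaphorins signal through plexins, and most class 3 semaphorins need a neuropilin as co-receptor. Ephrins bind Eph receptor tyrosine kinases on neighbouring cells, Slits bind Robo receptors to keep axons away from the midline, and netrins attract axons through Dcc or repel them through Unc5 receptors. In postmitotic neurons many of these proteins go on to shape dendrites and synapses, and semaphorin-plexin signalling reaches the actin cytoskeleton through enzymes of the MICAL family.

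The chromatin remodeller ATRX, which deposits histone variant H3.3 together with DAXX, was mapped by ChIP-seq, the sequencing of immunoprecipitated chromatin fragments, in primary neurons of C57BL6/J mouse embryos of stage E15.5-17.5, given lentivirus on day 5 in vitro. The 4 libraries came from neurons with TBC1D3 at day 14 in vitro (DIV14), neurons with MICAL1-M1 at DIV14, neurons with mCherry at DIV7, and neurons with mCherry at DIV14, called the control here. TBC1D3 is a hominoid-specific gene absent from mice, mCherry is a fluorescent protein, and what M1 stands for is not given in the labels. The study as a whole asked about the pace of synapse maturation, and the DIV7 library stands for young neurons in its design. Each group had 1 library, so nothing below has a replicate error and no test between groups was possible; every comparison is between these libraries and had no replicate check. Intervals are exact binomial ones at 95% and cover counting error alone. Peak lists do not report RNA, so neither the neuronal identity nor the lentiviral genes could be checked in them.

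The lists held 199059 peaks for TBC1D3, 141387 for MICAL1-M1, 213982 for mCherry at DIV7 and 96670 for the control, and each reached an uncorrected p of 0.05. The fold of a peak is the authors' own value, which fits the fragment pileup plus 1 over the caller's local background plus 1, and it is used below to describe and rank peaks within 1 list. Whole fragment pileups recovered from fold and p had a median of 4, 7, 4 and 9 over the peaks of TBC1D3, MICAL1-M1, mCherry at DIV7 and the control, over a genome background of 1.22, 2.61, 1.28 and 3.56 fragments. The libraries thus differ in depth, and depth and group cannot be told apart in any difference given below. The peak names inside the list deposited for MICAL1-M1 carry the stem M2, and the group given by the sample label is used throughout.

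The promoters of Nrp2, Plxna2, Epha4 and Sema4b are shown first because each was covered from end to end by a peak with a q-value of at most 0.05, corrected by the caller over the genome, and had its annotated start within 100 bp of the gene end. Nrp2 is a co-receptor of class 3 semaphorins, Plxna2 a plexin, Epha4 a receptor for ephrins of both classes, and Sema4b a membrane-bound semaphorin. The lines give the 250 bases before the start, read 5′ to 3′ along the gene's strand from RefSeq on GRCm38.p6, with GC boxes (GGGCGG on either strand) in capitals.
Nrp2: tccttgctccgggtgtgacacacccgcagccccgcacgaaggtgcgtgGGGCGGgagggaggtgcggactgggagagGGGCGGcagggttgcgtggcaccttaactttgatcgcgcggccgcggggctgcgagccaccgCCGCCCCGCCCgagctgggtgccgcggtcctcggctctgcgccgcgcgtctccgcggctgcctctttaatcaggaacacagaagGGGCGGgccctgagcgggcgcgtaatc
Plxna2: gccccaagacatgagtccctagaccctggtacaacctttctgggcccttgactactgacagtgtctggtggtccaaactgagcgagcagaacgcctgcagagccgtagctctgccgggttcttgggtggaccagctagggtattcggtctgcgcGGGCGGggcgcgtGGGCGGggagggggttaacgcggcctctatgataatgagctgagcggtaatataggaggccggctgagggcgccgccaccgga
Epha4: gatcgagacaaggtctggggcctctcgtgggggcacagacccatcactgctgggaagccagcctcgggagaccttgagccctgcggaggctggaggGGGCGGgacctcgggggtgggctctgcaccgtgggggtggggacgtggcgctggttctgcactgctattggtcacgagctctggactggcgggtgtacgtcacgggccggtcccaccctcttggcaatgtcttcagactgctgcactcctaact
Sema4b: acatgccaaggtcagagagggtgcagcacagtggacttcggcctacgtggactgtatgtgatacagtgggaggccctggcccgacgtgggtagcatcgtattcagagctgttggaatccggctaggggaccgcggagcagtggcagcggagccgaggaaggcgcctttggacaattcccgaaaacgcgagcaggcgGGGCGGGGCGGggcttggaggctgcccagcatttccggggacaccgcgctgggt
They lie at chr1:62703067-62703316 on the plus strand for Nrp2, chr1:194619579-194619828 on the plus strand for Plxna2, chr1:77515089-77515338 on the minus strand for Epha4 and chr7:80186620-80186869 on the plus strand for Sema4b. Nrp2 held 5 GC boxes and 32 CpG in these bases, Plxna2 held 2 boxes and 18 CpG, Epha4 held 1 box and 14 CpG, and Sema4b held 2 boxes and 20 CpG.

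Guidance gene promoters were rich in CpG and GC boxes. The promoter table, which covers 250 bases before to 50 after each start, matched 60 of the 70 guidance genes with 76 starts, against 21263 starts of 17492 protein-coding genes in all. GGGCGG was present on either strand in 71.1% of the guidance entries and 46.2% of all entries. The run GGGGG was present on either strand in 81.6% and 54.9%. It overlaps a GC box where a further G stands beside it. TGANTCA, the AP-1 motif, was present in 3.95% and 6.99%. The median entry held 19.5 CpG and 64.3% G or C for guidance genes, against 13 CpG and 56.3% for all. A match is a description of these letters and not a binding site.

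A gene was counted as occupied when the summit of a peak lay within 1 kb of either end of the gene. Guidance genes were occupied more often than genes at large, most clearly in MICAL1-M1 and in the control. In TBC1D3, 29 of 70 were occupied (41.4%, interval 29.8 to 53.8) against 33.4% of all genes. In MICAL1-M1, 43 were occupied (61.4%, 49.0 to 72.8) against 38.7%. In mCherry at DIV7, 31 were occupied (44.3%, 32.4 to 56.7) against 33.2%, and in the control 42 (60%, 47.6 to 71.5) against 42.3%. The interval lay above the share of all genes in MICAL1-M1 and the control and included it in TBC1D3 and mCherry at DIV7. Ligand genes were occupied in 16, 20, 17 and 21 of 35 cases and receptor genes in 13, 23, 14 and 21 of 35, in TBC1D3, MICAL1-M1, mCherry at DIV7 and the control.

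**Figure D1:**
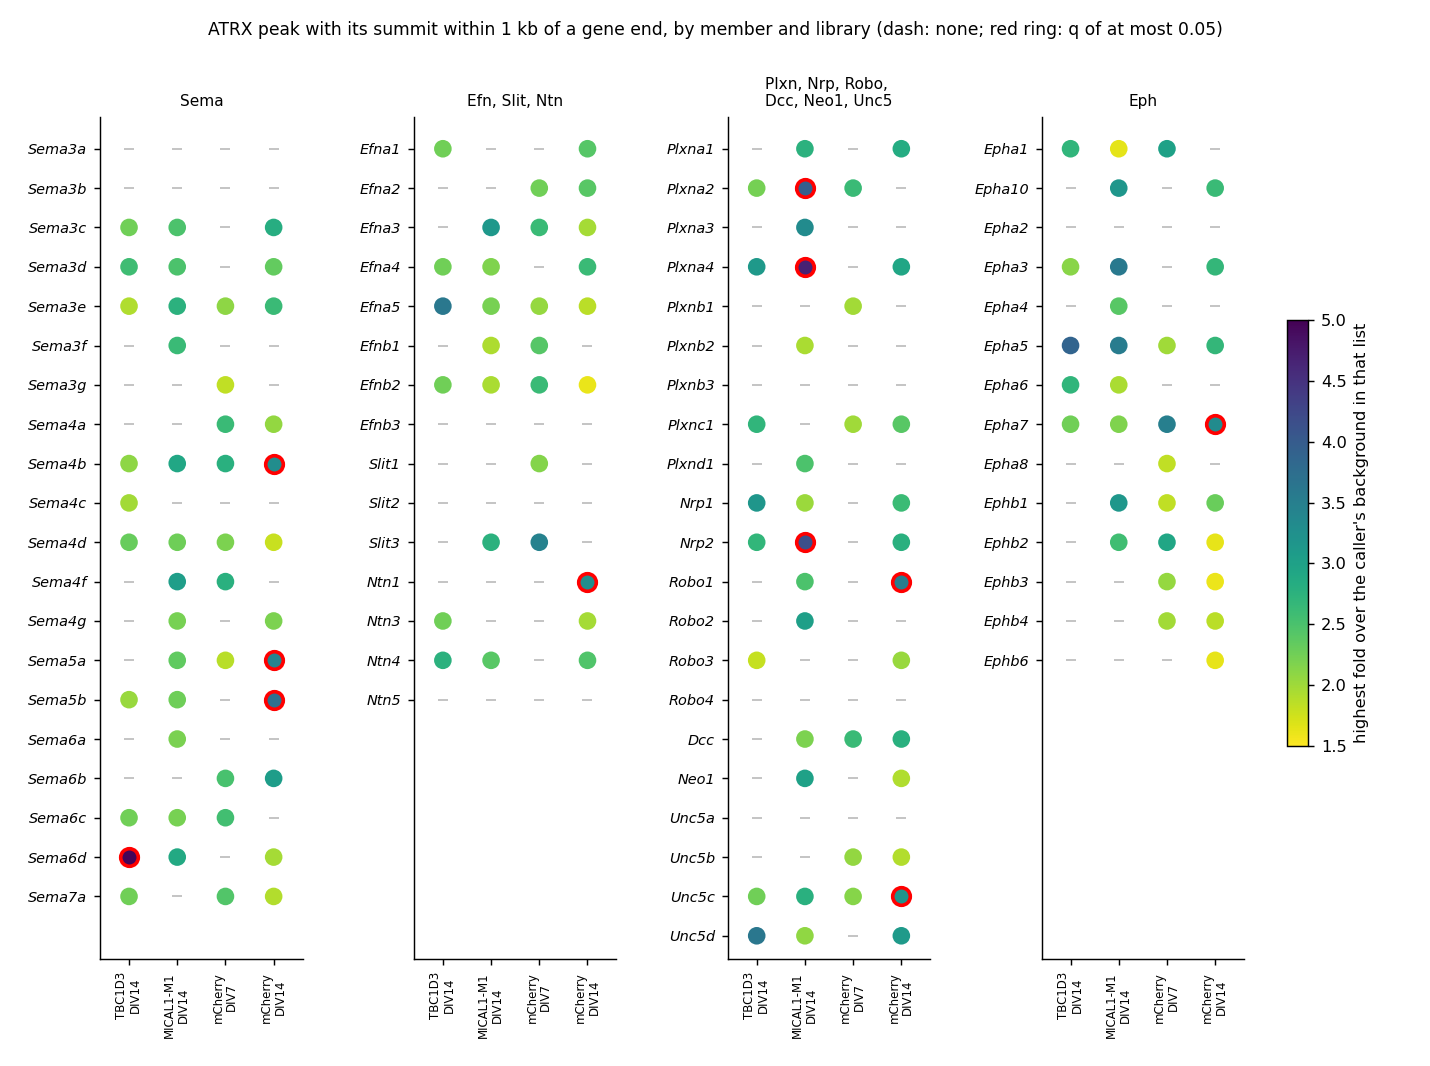
Highest fold of a gene-end peak for each of the 70 guidance genes (rows, by family) in the 4 libraries (columns); colour gives the fold over the caller's background in that list, a dash means no summit within 1 kb of a gene end and a red ring a q of at most 0.05. The 8 genes with a dot in every column and the 9 with dashes only stand out, and the rings number 1, 3, 0 and 7 from the left column to the right.

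Guidance genes are long, and long genes were occupied more often, so the shares were also read within classes of length. The median guidance gene spanned 53.6 kb against 17.2 kb for all genes, from 4.64 kb for Efna4 to 1555 kb for Robo2, and 47.1% of guidance genes against 11.1% of all genes exceeded 100 kb. Between 100 and 300 kb, 12 of 18 guidance genes were occupied in TBC1D3 (66.7%), 15 in MICAL1-M1 (83.3%), 8 in mCherry at DIV7 (44.4%) and 14 in the control (77.8%). All genes of that length stood at 44.7%, 56.4%, 45.3% and 58.2%. Above 300 kb the guidance shares were 46.7%, 86.7%, 40% and 66.7% of 15 genes, against 52.1%, 64.5%, 47.2% and 64.1% of all genes. Among the 21 guidance genes under 20 kb, 33.3%, 33.3%, 38.1% and 47.6% were occupied, against 29.2%, 30.2%, 29.1% and 33.0%. From 20 to 100 kb the counts were 3, 8, 9 and 8 of 16, and all genes stood at 35.9%, 45.6%, 35.7% and 51.1%. The difference from genes at large was thus smaller within several length classes than over all lengths, and in some it had the opposite sign: in TBC1D3 from 20 to 100 kb and above 300 kb, in mCherry at DIV7 in both classes over 100 kb, and in the control from 20 to 100 kb. In lists cut to equal length by p, 15 guidance genes were occupied in TBC1D3 and 18 in mCherry at DIV7, against 19.2% and 17.6% of all genes.

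**Figure D2:**
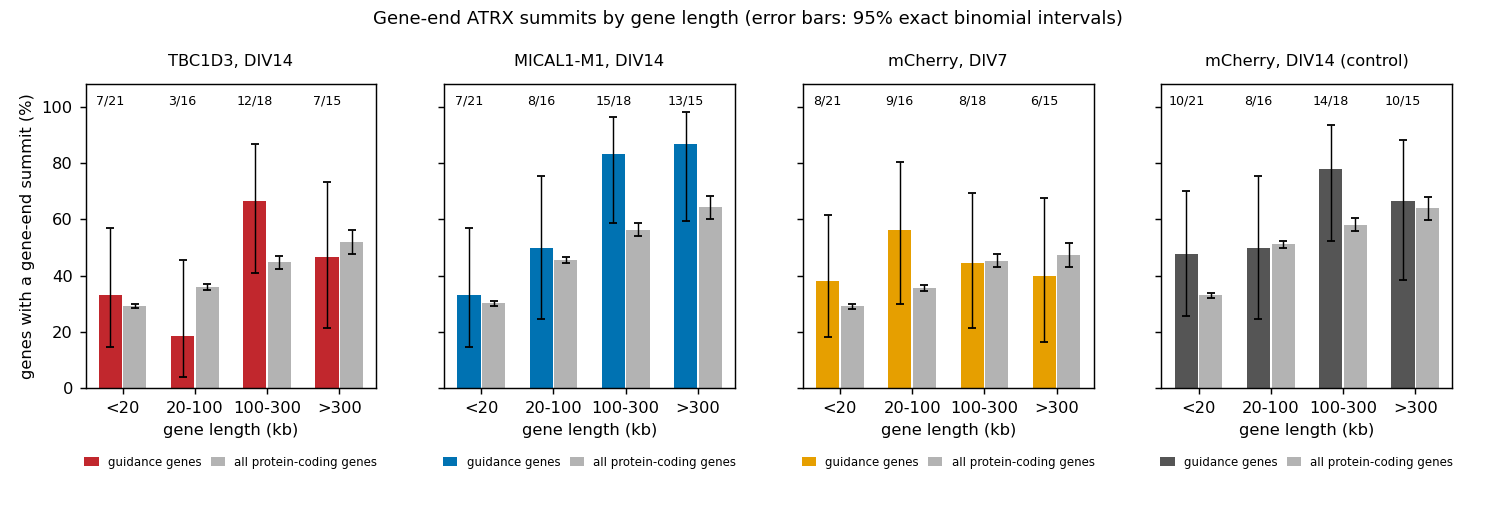
Percent of guidance genes (coloured bars) and of all protein-coding genes (grey bars) with a gene-end summit, by gene length in kb, in each library, with occupied over tested guidance genes above the bars and 95% exact binomial intervals. In MICAL1-M1 the 2 classes over 100 kb reach 83.3% and 86.7%, while the wide intervals of the coloured bars overlap the grey ones in most classes.

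The peaks behind these calls were small. Guidance genes held 37, 51, 39 and 45 gene-end summits in TBC1D3, MICAL1-M1, mCherry at DIV7 and the control. Their pileups had a median of 5 fragments (range 3 to 10) in TBC1D3, 9 (5 to 17) in MICAL1-M1, 5 (3 to 8) in mCherry at DIV7 and 12 (8 to 18) in the control. At a q of at most 0.05 occupancy was left at 1, 3, 0 and 7 guidance genes, against 0.146%, 1.33%, 0.228% and 8.47% of all genes. The 0 of 70 in mCherry at DIV7 allows a share of up to 4.29% by the limit of 3 counts, its exact interval reaches 5.13%, and the 7 of 70 in the control (10%, 4.12 to 19.5) lay near the share of all genes. For 1 peak each of TBC1D3 and mCherry at DIV7, another pileup also met the tolerance of the fit.

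**Figure D3:**
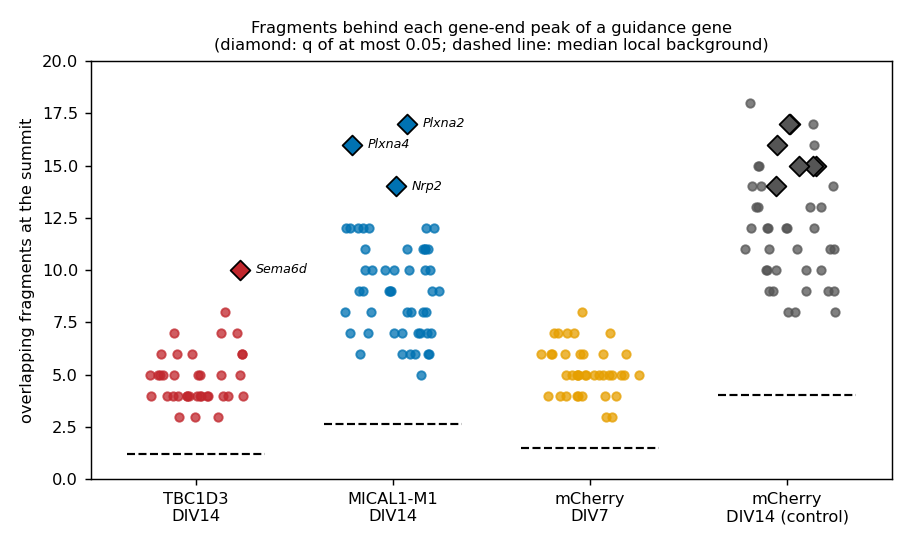
Overlapping fragments at the summit of each gene-end peak of a guidance gene, by library, with diamonds for a q of at most 0.05 and dashed lines at the median local background; points are spread sideways for legibility. Peaks of TBC1D3 and mCherry at DIV7 sit at 3 to 10 and 3 to 8 fragments, those of MICAL1-M1 at 5 to 17 and those of the control at 8 to 18.

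Among the ligands, a semaphorin carried the strongest gene-end peak in TBC1D3 and in the control, while Efna3 did in MICAL1-M1 and Slit3 in mCherry at DIV7. Semaphorins were occupied in 10, 13, 10 and 12 of 20 cases in TBC1D3, MICAL1-M1, mCherry at DIV7 and the control. Sema6d, a transmembrane semaphorin that binds plexin A receptors, had a 4.95-fold peak of 10 fragments in TBC1D3 (q 0.0015), 515 bp inside the start, at chr2:124089803-124090635. In MICAL1-M1 it had 2.89-fold with 11 fragments, in mCherry at DIV7 no gene-end summit, and in the control 1.98-fold with 10 fragments. The TBC1D3 peak was the only guidance gene-end peak of its list with a q of at most 0.05. Its pileup equalled that of the control peak, over a local background of 1.22 fragments in TBC1D3 and 4.57 in the control.

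Sema5b, a class 5 semaphorin with thrombospondin repeats, held the strongest gene-end peak of the control's guidance genes. Sema5b had 2.03-fold with 6 fragments in TBC1D3, 2.27-fold with 12 in MICAL1-M1, no gene-end summit in mCherry at DIV7, and 3.72-fold with 17 in the control (q 0.0043). A 3.07-fold DIV7 peak of 6 fragments reached the window of Sema5b with its summit 1543 bp from the gene end. Sema5a had no summit in TBC1D3, 2.35-fold with 10 fragments in MICAL1-M1, 1.88-fold with 8 in mCherry at DIV7 and 3.44-fold with 15 in the control (q 0.019). Sema4b, whose promoter is printed above, was listed in every library, at 2.10-fold with 4 fragments in TBC1D3, 2.92-fold with 11 in MICAL1-M1, 2.78-fold with 6 in mCherry at DIV7 and 3.3-fold with 17 in the control (q 0.019). In mCherry at DIV7, Sema4b and Sema4f tied as the strongest semaphorins. Sema4d, a ligand of plexin B1, and Sema3e, a secreted ligand of plexin D1, were also listed in every library, at 2.31-, 2.27-, 2.19- and 1.80-fold and at 1.91-, 2.77-, 2.09- and 2.63-fold. Sema3a, the classic secreted repellent, and Sema3b had no gene-end summit in any list. Sema4f was the strongest semaphorin without a control summit in MICAL1-M1 at 3.05-fold with 10 fragments, and it also had 2.78-fold with 6 fragments in mCherry at DIV7.

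Ephrins are anchored in the membrane by a lipid in class A and by a transmembrane segment in class B. They were occupied in 4, 5, 5 and 6 of 8 cases. Efna5, a repellent in topographic maps, had 3.59-fold with 7 fragments in TBC1D3, 2.22-fold with 7 in MICAL1-M1, 2.06-fold with 5 in mCherry at DIV7 and 1.87-fold with 8 in the control. Efnb2 was also listed in every library, at 2.26-fold with 4 fragments in TBC1D3, 1.94-fold with 6 in MICAL1-M1, 2.63-fold with 5 in mCherry at DIV7 and 1.62-fold with 14 in the control. The local background of that control peak of Efnb2 was 8.28 fragments, so its fold was low for its pileup. Efna3 led the ephrins in MICAL1-M1 at 3.13-fold and tied with Efnb2 in mCherry at DIV7 at 2.63-fold, and Efna4 led in the control at 2.63-fold. Efnb3 had no gene-end summit in any list.

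Netrins, secreted cues of the midline, were occupied in 2, 1, 0 and 3 of 4 cases and Slits, likewise secreted there, in 0, 1, 2 and 0 of 3. The control alone held a gene-end summit of Ntn1, the founding netrin, at 3.29-fold with 14 fragments (q 0.047). Ntn4 had 2.77-fold with 6 fragments in TBC1D3, 2.41-fold with 9 in MICAL1-M1, none in mCherry at DIV7 and 2.46-fold with 14 in the control, and Ntn5 had no gene-end summit in any list. Slit3 had no summit in TBC1D3, 2.77-fold with 9 fragments in MICAL1-M1, 3.44-fold with 7 in mCherry at DIV7 and none in the control. The absence in the control turns on the window: a 3.72-fold control peak of 16 fragments (q 0.0070) had its summit 1018 bp inside the start of Slit3. Slit2 had no gene-end summit in any list, though an annotated start further in had a summit within 1 kb in each library but TBC1D3.

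Receptors of semaphorins carried the 3 gene-end peaks of MICAL1-M1 with a q of at most 0.05. Plxna4, a plexin that partners with neuropilins, had 3.12-fold with 6 fragments in TBC1D3, 4.68-fold with 16 in MICAL1-M1 (q 0.00029, chr6:32587995-32588703), none in mCherry at DIV7 and 2.93-fold with 15 in the control. Nrp2 had 2.70-fold with 5 fragments in TBC1D3, 4.15-fold with 14 in MICAL1-M1 (q 0.0079, chr1:62702836-62704929), none in mCherry at DIV7 and 2.78-fold with 15 in the control. Nrp2 and Plxna4 thus had nearly equal pileups in MICAL1-M1 and the control. Their pileups were lower in TBC1D3, where the genome background was also lower, at 1.22 fragments against 3.56 in the control. Nrp1, the other neuropilin, had 3.17-fold with 7 fragments in TBC1D3, 2.02-fold with 10 in MICAL1-M1, none in mCherry at DIV7 and 2.61-fold with 14 in the control. By the gene-end window both neuropilins were occupied in the 3 DIV14 libraries and not in mCherry at DIV7. For Nrp1 this turns on the window, since a 3.07-fold DIV7 peak of 6 fragments reached it with its summit 1153 bp from the gene end, and a DIV7 summit lay within 1 kb of an annotated start.

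Plxna2 had 2.23-fold with 6 fragments in TBC1D3, 3.95-fold with 17 in MICAL1-M1 (q 0.0031, chr1:194618261-194621325), 2.63-fold with 5 in mCherry at DIV7 and no summit in the window in the control. A control peak of 3.14-fold with 14 fragments (q 0.062) did cover its promoter, with its summit 1222 bp from the gene end. Plexins were occupied in 3, 6, 3 and 3 of 9 cases. Plxna3 was occupied in MICAL1-M1 alone, at 3.32-fold with 11 fragments and a summit 904 bp from the gene end. A 2.19-fold DIV7 peak of 4 fragments reached the window of Plxna3 with its summit 1056 bp from the gene end. Plxnb2 had 1.94-fold in MICAL1-M1, and its control peak of 3.59-fold with 17 fragments (q 0.0070) had its summit 1053 bp inside the gene, 177 bp from another annotated start. Plxnb3 had a gene-end summit in no list.

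Eph receptors were occupied in 5, 9, 8 and 9 of 14 cases. Epha7 had 2.26-fold with 4 fragments in TBC1D3, 2.18-fold with 7 in MICAL1-M1, 3.5-fold with 7 in mCherry at DIV7 and 3.32-fold with 15 in the control (q 0.029). It was the strongest Eph receptor of the mCherry lists of both ages, although the TBC1D3 summit lay at the far end of the gene and the other 3 at the start. Epha5 was the strongest in TBC1D3 at 3.89-fold with 8 fragments, and had 3.55-fold with 12 in MICAL1-M1, 2.00-fold with 5 in mCherry at DIV7 and 2.69-fold with 12 in the control. Epha3 led in MICAL1-M1 at 3.59-fold with 12 fragments, against 2.69-fold with 12 in the control. Epha4 had 2.41-fold with 9 fragments in MICAL1-M1 and no summit within the window elsewhere. The control peak that covers its printed promoter had 3.93-fold with 18 fragments (q 0.0014), a width of 4694 bp and its summit 1060 bp outside the gene. No list held a gene-end summit of Epha2.

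Robo receptors were occupied in 1, 2, 0 and 2 of 4 cases. Robo1, a receptor for Slits, had no gene-end summit in TBC1D3, 2.5-fold with 10 fragments in MICAL1-M1, none in mCherry at DIV7 and 3.53-fold with 16 in the control (q 0.011). That control summit lay 635252 bp from the annotated start of Robo1 in the promoter table, which is further in. Within 1 kb of that start, each library but TBC1D3 had a summit. Robo2 was occupied by the gene-end window in MICAL1-M1 alone, at 3.04-fold with 10 fragments. Counting any annotated start, Robo2 had a summit within 1 kb in every library. Robo3, which modulates Slit responses of commissural axons, was occupied in TBC1D3 at 1.80-fold with 3 fragments and in the control at 2.04-fold with 10. Robo4, known from blood vessels, had no gene-end summit.

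The netrin receptors Dcc, Neo1 and the Unc5 genes were occupied in 2, 4, 3 and 5 of 6 cases. Unc5c had 2.26-fold with 4 fragments in TBC1D3, 2.78-fold with 10 in MICAL1-M1, 2.14-fold with 6 in mCherry at DIV7 and 3.19-fold with 15 in the control (q 0.047). Unc5d led its group in TBC1D3 at 3.61-fold with 7 fragments, with 2.08-fold and 12 in MICAL1-M1, none in mCherry at DIV7 and 3.11-fold with 14 in the control. Its TBC1D3 and control summits lay 978 and 919 bp from the gene end, just inside the window. Dcc had no summit in TBC1D3, 2.19-fold with 8 fragments in MICAL1-M1, 2.63-fold with 5 in mCherry at DIV7 and 2.78-fold with 17 in the control. Neo1, a relative of Dcc, had 3-fold with 10 fragments in MICAL1-M1 and 1.92-fold with 18 in the control. Unc5a had no gene-end summit in any list, though an inner annotated start had a summit within 1 kb in MICAL1-M1 and in the control.

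In all, 8 guidance genes were occupied in all 4 lists, namely Efna5, Efnb2, Epha5, Epha7, Sema3e, Sema4b, Sema4d and Unc5c, which is 11.4% against 6.24% of all genes. The 9 in none were Efnb3, Epha2, Ntn5, Plxnb3, Robo4, Sema3a, Sema3b, Slit2 and Unc5a, which is 12.9% against 27.0% of all genes.

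Each library was then set beside the control, which all 3 comparisons share. In TBC1D3, 5 guidance genes were occupied without the control (15.6% of all genes were), 18 in the control only (24.4%) and 24 in both (17.9%). The 5 were Epha1 and Epha6 at 2.71-fold, Sema6c at 2.26-fold, Plxna2 and Sema4c, each with 4 to 6 fragments, and the strongest of the 18 were Robo1, Sema5a and Ntn1. Of the 5, Plxna2 had a control peak that reached the window with its summit outside. Epha6 and Sema4c had a control summit within 1 kb of an annotated start. In MICAL1-M1, 14 were occupied without the control (11.6% of all genes), 13 in the control only (15.2%) and 29 in both (27.1%). The 14 were led by Plxna2, Plxna3 and Sema4f and included 4 of the 9 plexins. For 7 of the 14, among them Plxna2, Plxnb2, Plxnd1, Epha4 and Slit3, a control peak reached the window with its summit outside. Of the 4 plexins only Plxna3 had no such control peak. Plxnb2 and Plxnd1 also had a control summit within 1 kb of an annotated start. With windows of 3 kb, 4 were occupied in MICAL1-M1 and not in the control, against 12.4% of all genes. The 13 were led by Ntn1 at 3.29-fold, Sema6b at 3.07-fold and Efna1 at 2.43-fold in the control. In mCherry at DIV7, 10 were occupied without the control (15.7% of all genes), 21 in the control only (24.7%) and 21 in both (17.5%). The 10 were led by Slit3 at 3.44-fold, Epha1 at 3-fold and Sema4f at 2.78-fold, and the 21 in the control only by Sema5b, Robo1 and Ntn1. Robo1 did have a DIV7 summit within 1 kb of its annotated start. As shares of all 70, the counts without the control were 7.14%, 20% and 14.3%, so that of TBC1D3 lay under the share of all genes, that of MICAL1-M1 above it and that of mCherry at DIV7 close to it. For mCherry at DIV7 the side turned with the setting: at starts alone 15% of guidance genes and 11% of all genes were occupied without the control, and in lists of equal length 8.57% and 7.61%. It also turned with the base of the share, since only genes without a control summit can be counted. Of those, 17.9%, 50% and 35.7% of guidance genes were occupied in TBC1D3, MICAL1-M1 and mCherry at DIV7. The shares of all genes without a control summit were 26.9%, 20.1% and 27.1%.

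The peaks themselves were also compared, by an overlap of at least 1 bp. Of the control's 45 gene-end peaks at guidance genes, 17 (37.8%) were overlapped by a TBC1D3 peak, 29 (64.4%) by a MICAL1-M1 peak and 13 (28.9%) by a peak of mCherry at DIV7, against 25.1%, 51.5% and 23.7% of the control's gene-end peaks at all genes. Over whole guidance genes, a TBC1D3 peak overlapped 13.0% of the control's peaks, a MICAL1-M1 peak 23.0% and a peak of mCherry at DIV7 10.7%, against 14%, 26.7% and 13.3% for all genes. As shares of each library's own peaks in guidance genes, 10.8%, 17.4% and 9.32% overlapped the control, against 9.62%, 20.9% and 8.84% for all genes. Control peaks near gene ends were therefore met more often than control peaks over whole genes, at guidance genes and at all genes alike. The control's gene-end peaks at guidance genes had a median width of 677 bp, against 431 bp for its whole list. An effect of width on overlap was not tested.

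Occupancy at guidance genes lay at the start of transcription far more than at the other end. Counting any annotated start, 24 of 60 guidance genes (40%) had a summit within 1 kb in TBC1D3, 40 (66.7%) in MICAL1-M1, 33 (55%) in mCherry at DIV7 and 43 (71.7%) in the control, against 27.1%, 38.6%, 27.1% and 43.8% of all genes. At the far gene end the counts were 7, 7, 7 and 1 of 60, against 13.1%, 7.82%, 12.7% and 5.8% of all genes. Several starts were annotated for 20% of the guidance genes and 15.8% of all genes, and each start adds a window. In the first 1 kb downstream of the outer start there were 23.3, 41.7, 28.3 and 38.3 summits per 100 guidance genes, against 16.8, 23.9, 16.9 and 27.5 per 100 genes.

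**Figure D4:**
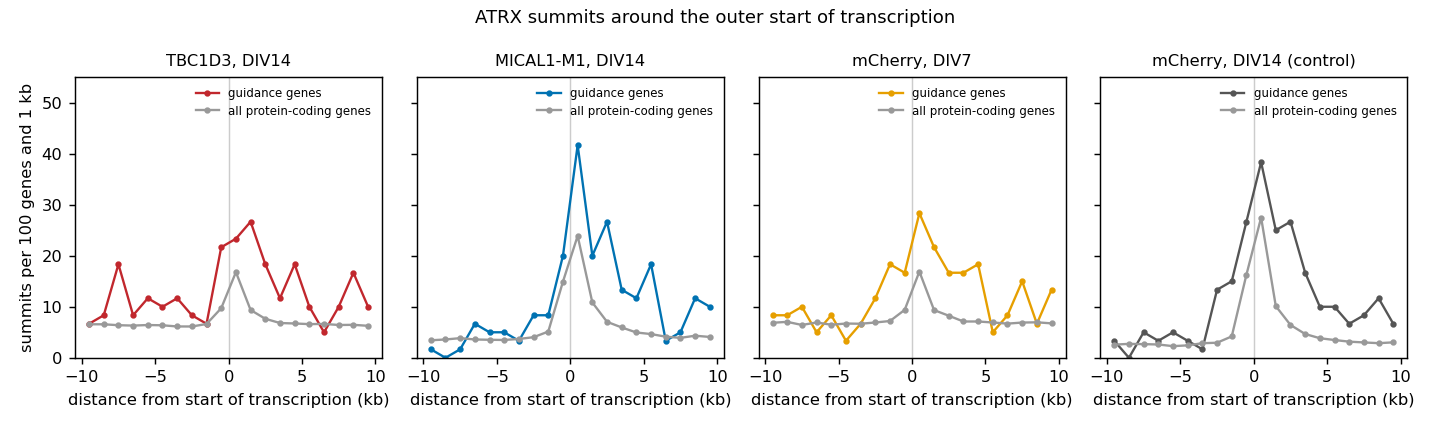
Summits per 100 genes in each 1 kb bin from 10 kb before to 10 kb after the outer start of transcription, for the 60 guidance genes with a known strand (coloured) and for all protein-coding genes (grey). The first bin downstream reaches 41.7 in MICAL1-M1 and 38.3 in the control for guidance genes, and their lines stay above the grey ones for some kb into the gene.

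Over all genes, the promoter's CpG content went with occupancy, and guidance genes were compared within CpG classes. With 20 or more CpG per 300 bases, 41.2% of 34 guidance genes had a summit at a start in TBC1D3, 67.6% in MICAL1-M1, 64.7% in mCherry at DIV7 and 82.4% in the control, against 38.4%, 62.9%, 37.7% and 71.9% of all genes. With 10 to 19 CpG, the shares were 50%, 77.8%, 44.4% and 72.2% of 18 guidance genes, against 29.1%, 47.5%, 28.3% and 56.2% of all genes. Under 10 CpG there were 8 guidance genes, of which 1, 3, 3 and 2 were occupied, against 15.4%, 10.7%, 16.3% and 10.4% of all genes. In the CpG-rich class the guidance genes of TBC1D3 and MICAL1-M1 lay within 5 percentage points of all genes. A peak covered at least 1 base of the promoter entry in 19.7%, 50%, 21.1% and 52.6% of guidance entries, against 10.7%, 24.7%, 11% and 33.6% of all entries.

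Inside the genes, guidance genes as a whole held more summits per length than genes at large in the full lists of the 4 libraries, though not in every length class or in every list cut to equal length. With 1 kb left out at each end, they held 1151 summits in TBC1D3, 1212 in MICAL1-M1, 1131 in mCherry at DIV7 and 883 in the control, or 8.73, 9.19, 8.57 and 6.69 per 100 kb. All genes held 7.73, 6.46, 7.98 and 4.66 per 100 kb. A summit anywhere in the gene span was present in 63, 60, 63 and 57 of the 70, against 62.2%, 53.7%, 63.2% and 50% of all genes. These shares were not matched for length, and long genes catch more summits. In TBC1D3, all 557 genes over 300 kb held a summit with the ends left out, against 3259 of 9263 under 20 kb. The difference in summits per length was largest near the start: from 1 to 10 kb downstream, guidance genes held 13.8, 13.8, 13.9 and 13.8 summits per 100 kb, against 7.26, 6.29, 7.51 and 5.13. More than 300 kb downstream they held 7.58, 8.98, 8.88 and 6.25, against 8.17, 8.09, 8.64 and 5.80. Guidance genes of 20 to 100 kb held 13.1, 6.82, 11.6 and 6.08 summits per 100 kb, against 6.62, 4.65, 6.8 and 3.23 for all genes of that length. Those over 300 kb held 8.14, 9.31, 8.33 and 6.63, against 8.51, 8.18, 8.92 and 5.96, so in TBC1D3 and mCherry at DIV7 they lay below all genes. In lists cut to equal length, guidance genes of mCherry at DIV7 held 3.17 per 100 kb, against 3.58 for all genes.

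**Figure D5:**
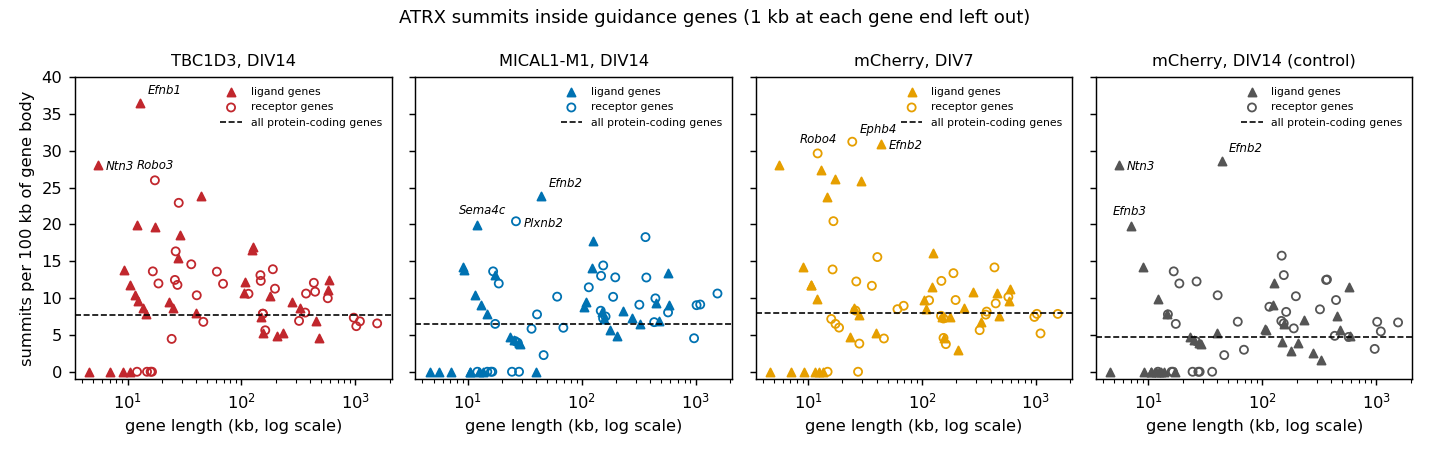
Summits per 100 kb of gene body (1 kb at each end left out) against gene length on a log scale, 1 point per guidance gene, with triangles for ligands, circles for receptors, a dashed line at the value of all protein-coding genes and the 3 densest genes named. Short genes spread widely because 1 summit weighs much, and Efnb2 is high in each panel at 23.8 to 30.9 per 100 kb.

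Among single genes Efnb2 kept a high density in every library, with 10, 10, 13 and 12 body summits, or 23.8, 23.8, 30.9 and 28.6 per 100 kb. Efnb2 is a transmembrane ephrin that also signals backwards into its own cell. It was among the 3 densest guidance genes in MICAL1-M1, mCherry at DIV7 and the control. The other leaders were short and rested on few summits. They were Efnb1 (36.5 per 100 kb from 4 summits), Ntn3 (28.1 from 1) and Robo3 (26.0 from 4) in TBC1D3, and Plxnb2 (20.4 from 5) and Sema4c (19.9 from 2) in MICAL1-M1. In mCherry at DIV7 they were Ephb4 (31.2 from 7) and Robo4 (29.6 from 3), and in the control Ntn3 (28.1 from 1) and Efnb3 (19.8 from 1). Robo2, the longest, held the most summits, 102, 165, 122 and 104. By family the order of the libraries varied: Robo genes held 6.51, 9.93, 7.93 and 6.70 per 100 kb, while Slit genes held 10.6, 8.14, 9.37 and 3.69.

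Peaks inside guidance genes with a q of at most 0.05 numbered 1 in TBC1D3, 5 in MICAL1-M1, 1 in mCherry at DIV7 and 21 in the control. Epha6 held that of TBC1D3, at 4.45-fold with 9 fragments (q 0.014), and that of mCherry at DIV7, at 4.38-fold with 9 fragments (q 0.025), at different places 668 and 439 kb from the start. In MICAL1-M1 they lay in Sema4a at 4.14-fold, Dcc at 4.09-fold, Robo1 at 3.88-fold, Efnb2 at 3.86-fold and Sema6d at 3.79-fold. The Sema4a summit was 88 bp from an internal annotated start of that gene. In the control the strongest peak of any guidance gene lay in Sema6a, a transmembrane semaphorin, at 5.82-fold with 26 fragments over 3523 bp. Efnb2 held 3 of the control's 21, at 3.72-, 3.51- and 3.29-fold, and the rest were spread over 15 other genes. Genes named here for peaks inside them were chosen after their values were seen.

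Other guidance genes, a list of 69 co-receptors, cytoplasmic effectors and further cues, were counted in the same way. They were occupied in 34 cases in TBC1D3 (49.3%), 44 in MICAL1-M1 (63.8%), 32 in mCherry at DIV7 (46.4%) and 48 in the control (69.6%), against 33.4%, 38.7%, 33.2% and 42.3% of all genes. No share of these 69 genes given here was matched for gene length or promoter CpG. Against the control, 9, 11 and 8 were occupied in the library only (15.6%, 11.6% and 15.7% of all genes), 23, 15 and 24 in the control only (24.4%, 15.2% and 24.7%) and 25, 33 and 24 in both (17.9%, 27.1% and 17.5%). At a q of at most 0.05, Rgma, a ligand of Neo1, had 4.07-fold with 15 fragments in MICAL1-M1 and 3.99-fold with 18 in the control. In the control 14 of the 69 (20.3%) had such a peak, against 7 of the 70 ligand and receptor genes (10%) and 8.47% of all genes. The 13 besides Rgma had it in the control alone: Cntn2, an axonal adhesion molecule, and the adaptor Nck1 at 3.94-fold, the kinase Abl2 at 3.79-fold, the actin-severing protein gene Cfl1 at 3.77-fold, Trim9, which binds Dcc, at 3.45-fold and Dpysl2, a collapsin response mediator, at 3.41-fold. Vav3, Rock1, Rock2, Dock1, Flrt2, Flrt3 and Farp1 lay between 3.12- and 3.29-fold. Neither TBC1D3 nor mCherry at DIV7 had a gene-end peak with such a q at any of the 69, against 0.146% and 0.228% of all genes. Over the assembled chromosomes, peaks with such a q numbered 329 in TBC1D3, 625 in MICAL1-M1, 415 in mCherry at DIV7 and 4041 in the control.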

How the data were processed

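The ATRX antibody was used on chromatin cut by enzyme, libraries were read from both ends, and input DNA was the background, per the labels' protocols. The submitters' processing notes name MACS 1.4.2, Bowtie 1.3.0, ChIPseeker 1.26.2 and SAMtools 1.9. No source used here states their settings or a genome build, and the layout of the lists is not one that MACS 1.4.2 writes. Every library has its own list. The input sample was not analysed here.

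The deposited lists have 10 columns. The authors' score is the whole part of 10 times a peak's -log10 p. The deposited fold is a ratio that fits pileup plus 1 over local background plus 1. The deposited -log10 p and -log10 q per peak are the caller's own, and the last column is the summit offset in bp. Whole pileups and backgrounds were fitted to fold and p within 0.001 in log10 p.

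Gene positions and promoter sequences came from RefSeq GRCm38.p6. Scaffold names and summits clustering just downstream of annotated starts fit that build. Strand was known for 60 of the 70 members. The members and lists were chosen with earlier results of these data known. Named genes are those with a gene-end peak at a q of at most 0.05, the strongest gene of each family and library, those in all 4 lists or none, the 3 densest bodies and the one with most summits per library, the 3 strongest on each side of each comparison, and other guidance genes with such a q. Any other gene named was chosen after its values were seen. The alternatives were a window of 3 kb, any base of a peak in place of the summit, a q of at most 0.05, lists cut to equal size by p, the start of transcription only and the whole gene span. Python 3.11.15 with pandas 2.3.3, numpy 2.4.6 and scipy 1.17.1 was used, and scripts were tested on simulated data.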

Additional observations from a re-analysis of the deposited data

How the results depend on the processing

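Of 90 alternative values for 22 results, 46 stayed within the set limits and 44 moved. At a q of at most 0.05, gene-end occupancy was 1, 3, 0 and 7 guidance genes in TBC1D3, MICAL1-M1, mCherry at DIV7 and the control. It was 0, 1, 0 and 14 of the other guidance genes, and 0.146%, 1.33%, 0.228% and 8.47% of all genes. Then 1, 3 and 0 were occupied in TBC1D3, MICAL1-M1 and mCherry at DIV7 only, and 7 in the control only in each comparison. Summits of that q lay in the spans of 2, 5, 1 and 21 guidance genes (0.525%, 1.96%, 0.64% and 10.5% of all genes), or 0.0076, 0.038, 0.0076 and 0.16 per 100 kb of body, against 0.0102, 0.0248, 0.0114 and 0.155 for all genes; for spans, this setting and the equal lists were added after the data were seen. With lists cut to 96647 peaks each, 15 guidance genes were occupied in TBC1D3 and 18 in mCherry at DIV7 (19.2% and 17.6% of all genes), with 20 and 17 other guidance genes. Then 3 were occupied in TBC1D3 only and 6 in mCherry at DIV7 only (8.23% and 7.61% of all genes). Beside TBC1D3, 30 were occupied in the control only (31.3% of all genes). Body density was 4.33, 5.81 and 3.17 per 100 kb in TBC1D3, MICAL1-M1 and mCherry at DIV7. All genes stood at 3.71, 4.47 and 3.58, so the direction turned in mCherry at DIV7. With 3 kb windows, 54 were occupied in TBC1D3 and 55 in mCherry at DIV7 (57.7% and 59.3% of all genes), with 53 and 52 other guidance genes. Then 4 were occupied in MICAL1-M1 only (12.4% of all genes). Beside TBC1D3, MICAL1-M1 and mCherry at DIV7, 10, 6 and 12 were occupied in the control only (17.2%, 12.2% and 17.0% of all genes). At starts alone, 3 of 60 were occupied in TBC1D3 only and 7 of 60 in MICAL1-M1 only (10.8% and 9.97% of all genes). In mCherry at DIV7, 19 of 53 other guidance genes were then occupied (27.1% of all genes). Counting any base of a peak, 8 were occupied in MICAL1-M1 only, against 11.1% of all genes.

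The excess of MICAL1-M1-only guidance genes over the share of all genes thus turned with 3 kb windows, at 5.71% against 12.4% of all genes. It was small counting any base of a peak (11.4% against 11.1%) and at starts alone (11.7% against 9.97%). In lists of equal size it stood at 15.7% against 9.06%, and at a q of at most 0.05 at 4.29% against 0.864%. Equal lists differ in their largest p (0.0082, 0.018, 0.010 and 0.050), so they do not make depth equal. No paired analysis was possible because each group had 1 library and no result comes from a test. Gene-end calls rest on pileups of 3 to 18 fragments.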
